A study of Mus musculus with 8 samples.

Results

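Striatal medium spiny neuron genes were followed through 8 RNA-seq libraries of mouse brain. The 9 genes were chosen by symbol, from knowledge of the cell type, but with earlier results of these data known. What they share below is therefore a description and no test. They were Drd1, Tac1, Drd2, Adora2a, Penk, Ppp1r1b, Rgs9, Pde10a and Rarb, out of 54532 genes in the count table. All 9 passed the filter on low counts and are among the 17182 genes tested. The study asked how long-lasting stress bears on cerebral amyloid angiopathy (CAA), in which amyloid collects in the walls of brain vessels, and on the chromatin traps released by neutrophils. The 4 groups held 2 libraries each. WT mock came from wild-type mice given the mock treatment, and WT stress from wild-type mice put through chronic restraint stress. CAA mock and CAA stress were the same treatments in mice labelled CAA. All mice were perfused with PBS. The sources used here do not give the strain, transgene, promoter and age behind the CAA label, the age of the wild-type mice, the length of the restraint or the part of each brain that gave RNA. A library is called by its group and number, as in WT mock 1. No label says that replicates came from separate animals, so a p-value covers the spread between libraries, which may be technical.

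Medium spiny neurons are the GABA-releasing projection neurons that make up most of the striatum, the input station of the basal ganglia. Those of the direct pathway carry the dopamine receptor D1 and substance P, and those of the indirect pathway carry the dopamine receptor D2, the adenosine receptor A2a and enkephalin. Dopamine raises cyclic AMP through D1 and lowers it through D2, and DARPP-32, RGS9 and phosphodiesterase 10A act on the signal downstream in both kinds.

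The promoter sequences printed here lie upstream of annotated transcription starts of several of these genes. Whether they bear on the profiles over the libraries was not tested. RefSeq promoter windows on GRCm38.p6, each of 300 bases, matched 6 of the 9 genes with 8 windows. Capitals mark motif matches on either strand, and each stretch below runs 5′ to 3′ on the gene's own strand. Those of Drd1, Tac1 and Drd2 leave out annotated exons. The receptor pair Drd1 and Drd2 and the direct-pathway peptide gene Tac1 are shown to set the pathways side by side. A short element of Rarb is shown because it is a spaced repeat.
Drd1, chr13:54055706-54055908, minus strand: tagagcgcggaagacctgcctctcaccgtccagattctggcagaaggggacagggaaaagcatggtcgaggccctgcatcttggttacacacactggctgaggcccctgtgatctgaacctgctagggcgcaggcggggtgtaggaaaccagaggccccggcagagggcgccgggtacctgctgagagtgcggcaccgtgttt
Tac1, chr6:7554811-7554878, plus strand: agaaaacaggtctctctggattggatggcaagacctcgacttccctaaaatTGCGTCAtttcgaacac
Drd2, chr9:49340153-49340402, plus strand: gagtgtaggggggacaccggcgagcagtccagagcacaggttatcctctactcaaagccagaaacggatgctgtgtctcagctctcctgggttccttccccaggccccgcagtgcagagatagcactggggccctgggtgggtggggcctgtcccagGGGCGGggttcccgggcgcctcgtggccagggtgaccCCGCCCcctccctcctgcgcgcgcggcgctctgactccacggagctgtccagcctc
Rarb, chr14:16575508-16575533, minus strand: gaaggGTTCAccgaaaGTTCActcgc

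The Rarb element held GTTCA and a second GTTCA after 6 bases, from -52 to -37 relative to the start of transcription. It lies within an exon of another annotated Rarb transcript. The same spaced repeat was found in 0.0761% of the 32851 promoter windows. A retinoic acid response element in the promoter of this gene is textbook knowledge, and the match here is a description of letters. The Tac1 stretch held TGCGTCA, a variant of the cyclic AMP response element, at -199 to -193, a motif found in 2.12% of windows. The full element TGACGTCA was in 0 of the 8 windows of these genes and in 1.79% of all windows. Drd2 held the GC box GGGCGG at -93 to -88 and, on the other strand, at -56 to -51. The Drd1 stretch printed held none of the motifs searched. A GC box was in 7 of the 8 windows, which come from 6 genes, against 35.7% of all windows. TATAAA was found in the window of Rgs9 alone, at -195 to -190, against 13.6% of all windows.

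The libraries held 17275201 to 18894657 counts, of which 99.9% fell on the genes tested. By Xist and Y-linked counts, WT mock 1 and CAA stress 1 came from females and the other 6 libraries from males; the labels do not give sex. App, which encodes the amyloid precursor protein, lay at 1053 to 1257 CPM in the WT libraries and at 1043 to 1337 in the CAA libraries. These ranges overlap, and since the labels name no transgene they do not check the CAA label. The 6 general neuron markers summed to 5145 to 6845 CPM in every library. CPM stands for TMM-normalised counts scaled to a common library size.

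The largest differences among the striatal genes were between replicates of the mock groups. All 9 genes were low in WT mock 1 and in CAA mock 2, and their summed level there was 172 and 165 CPM against 675 to 1249 CPM in the other 6 libraries. In bulk tissue, fewer cells of a type and less RNA per cell cannot be told apart. The fold changes of the 9 genes in comparisons that include WT mock 1 or CAA mock 2 are given with and without these libraries. Most ratio differences and the further gene lists are given only with both included. WT mock 1 and CAA mock 2 are picked out by these same genes, so values without them describe the other 6 libraries and are no test.

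**Figure D1:**
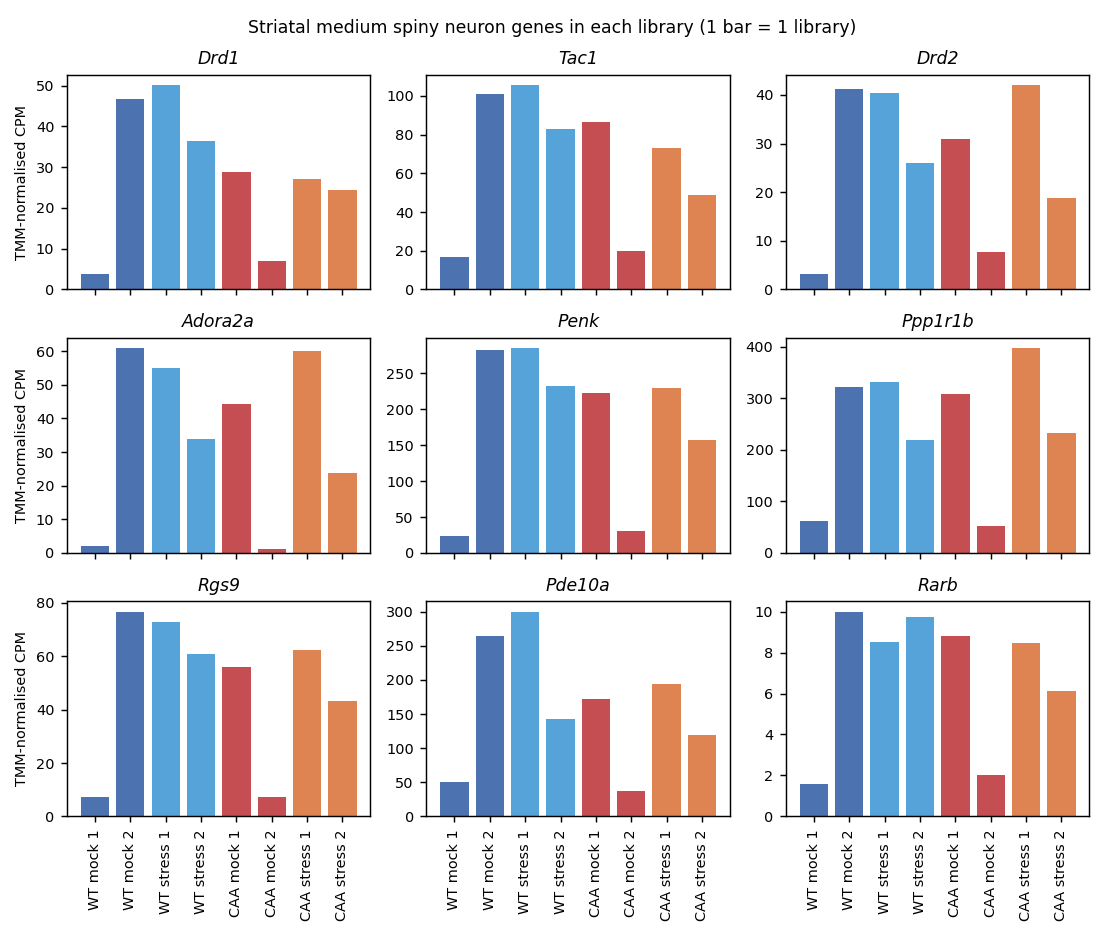
TMM-normalised CPM (vertical axis, 1 scale per gene, starting at 0) of the 9 striatal genes in the 8 libraries (horizontal axis, 1 bar per library, coloured by group). The bars of WT mock 1 and CAA mock 2 are the lowest 2 in every panel.

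Of the direct-pathway genes, Drd1 (dopamine receptor D1, ENSMUSG00000021478, chr13:54051183-54055705, minus strand) had 3.87 and 46.8 CPM in WT mock 1 and 2, and 50.2 and 36.4 in WT stress 1 and 2. It had 28.9 and 6.87 CPM in CAA mock 1 and 2, and 27.0 and 24.4 in CAA stress 1 and 2. Leaving aside the low library of each genotype, the 3 WT libraries all lay above the 3 CAA libraries. Tac1 (ENSMUSG00000061762, chr6:7554879-7565834, plus strand) encodes the precursor of substance P. It had 16.7 and 101 CPM in WT mock, 106 and 82.7 in WT stress, 86.7 and 20.1 in CAA mock and 73.0 and 48.9 in CAA stress, replicates 1 and 2 in that order. Both CAA stress libraries lay below both WT stress libraries, while the mock groups overlapped.

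Of the indirect-pathway genes, Drd2 (dopamine receptor D2, ENSMUSG00000032259, chr9:49340627-49408177, plus strand) had 3.28 and 41.3 CPM in WT mock and 40.3 and 26.0 in WT stress. In CAA mock it had 30.9 and 7.66 CPM, and in CAA stress 42.1 and 18.8. The highest and the third lowest Drd2 values of all 8 libraries were both from CAA stress, so this group spanned both WT stress libraries. Adora2a, the adenosine receptor A2a (ENSMUSG00000020178, chr10:75316877-75334784, plus strand), had 1.99 and 60.9 CPM in WT mock and 54.9 and 33.8 in WT stress. It had 44.3 and 1.24 CPM in CAA mock and 59.9 and 23.8 in CAA stress. Adora2a was the gene that came nearest to being absent, with 37 counts in WT mock 1 and 22 in CAA mock 2. Penk (ENSMUSG00000045573, chr4:4133531-4138819, minus strand), which encodes the enkephalin precursor, had 24.2 and 282 CPM in WT mock and 285 and 232 in WT stress. It had 223 and 31.2 CPM in CAA mock and 230 and 158 in CAA stress, and the 2 stress groups did not overlap.

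Of the genes that both pathways share, Ppp1r1b (ENSMUSG00000061718, chr11:98348404-98357796, plus strand) encodes DARPP-32, which inhibits protein phosphatase-1 when protein kinase A has phosphorylated it. It had 62.6 and 321 CPM in WT mock, 332 and 218 in WT stress, 309 and 51.9 in CAA mock and 397 and 232 in CAA stress. The highest value was from a CAA library, and the genotypes overlapped throughout. Rgs9 (ENSMUSG00000020599, chr11:109225355-109298129, minus strand), which speeds the switching off of G proteins, had 7.37 and 76.6 CPM in WT mock and 72.8 and 60.6 in WT stress. It had 56.0 and 7.21 CPM in CAA mock and 62.3 and 43.3 in CAA stress. Without the low pair of libraries the Rgs9 values lay between 43.3 and 76.6 CPM. Pde10a (ENSMUSG00000023868, chr17:8525372-8986648, plus strand), the phosphodiesterase that breaks down cyclic nucleotides in these neurons, had 50.9 and 264 CPM in WT mock and 300 and 143 in WT stress. It had 171 and 36.6 CPM in CAA mock and 193 and 120 in CAA stress. Among the 6 other libraries Pde10a was highest in WT mock 2 and WT stress 1 and lowest in CAA stress 2.

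Rarb (ENSMUSG00000017491, chr14:16430839-16819156, minus strand), the retinoic acid receptor beta, was the least expressed of the 9. It had 1.56 and 9.99 CPM in WT mock, 8.54 and 9.76 in WT stress, 8.82 and 2.03 in CAA mock and 8.45 and 6.11 in CAA stress. Only 29 and 36 counts stood behind the values of WT mock 1 and CAA mock 2. Of the 5265 exonic bases of Rarb, 2020 are also exonic in genes on the other strand, among them the topoisomerase gene Top2b at 108 to 147 CPM. Ppp1r1b shares 460 exonic bases with a non-coding transcript on the other strand, and Penk shares 233. The sources used here do not say if the counting was by strand, so reads from these pairs cannot be told apart.

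Levels of different genes were compared per length, as FPKM. The median over the 8 libraries was highest for Penk at 137 FPKM and Ppp1r1b at 91.4. Tac1 followed at 22.6, Adora2a at 12.6, Pde10a at 12.1, Drd2 at 11.1, Rgs9 at 9.03, Drd1 at 7.62 and Rarb at 1.59. Neighbours in this order differed by less than the larger of their SDs over the 8 libraries, except that Ppp1r1b (SD 42.6) lay above Tac1 (SD 10.1) and Drd1 (SD 4.56) above Rarb (SD 0.633) by more. Within libraries some of the order was firmer. Penk exceeded Ppp1r1b in 7 of 8 libraries, and Ppp1r1b exceeded Tac1, Tac1 exceeded Adora2a, Drd2 exceeded Rgs9 and Drd1 exceeded Rarb in 8 of 8. Adora2a exceeded Pde10a in 2 of 8 libraries, Pde10a exceeded Drd2 in 6, and Rgs9 exceeded Drd1 in 4.

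The fold between the 2 replicates of a group puts a size on the low libraries. In WT mock the second replicate exceeded the first by 5.13-fold for Ppp1r1b (95% interval 4.81 to 5.47) at the least and by 30.6-fold for Adora2a (22.0 to 43.7) at the most. In CAA mock the first replicate exceeded the second by 4.03-fold for Drd2 (3.33 to 4.91) to 35.7-fold for Adora2a (23.4 to 57.4). These are exact binomial intervals and cover counting error only. All 9 genes were at least 4-fold apart in both mock groups, against 0.63% of 14913 genes in WT mock and 0.369% in CAA mock. In WT stress the 9 folds ran from 1.14 for Rarb to 2.10 for Pde10a, with 0.282% of genes at least 4-fold apart. In CAA stress they ran from 1.11 for Drd1 to 2.51 for Adora2a, with 0.369% of genes that far apart. The interval of Rarb in WT stress (0.916 to 1.43) and that of Drd1 in CAA stress (0.975 to 1.26) reached 1. The median fold over all genes was 1.14 to 1.18 in the 4 groups.

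**Figure D2:**
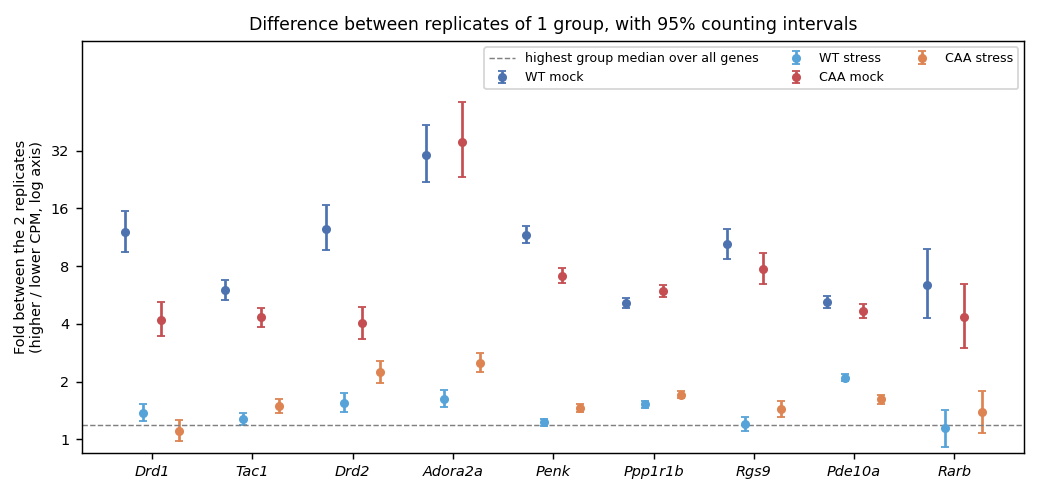
Fold between the 2 replicates of each group (vertical log axis, higher over lower CPM) for the 9 striatal genes (horizontal axis), with 95% counting intervals as bars and the highest group median over all genes, 1.18, as a dashed line. The mock groups lie at 4.03 to 35.7 and the stress groups at 1.11 to 2.51.

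The genes did not all drop by the same factor in the low libraries. Adora2a had the widest span over the 8 libraries, at 49.1-fold, and Tac1 the narrowest, at 6.32-fold, while the median gene tested spanned 1.67-fold. The biological coefficient of variation, which is the spread between replicates beyond counting error, was 0.637 for Rarb to 1.23 for Adora2a, against a median of 0.188 over all genes. Each of the 9 lay at or above the 98.4th percentile of all genes tested. In likeness of profile, measured as the root mean square difference of centred log2 CPM from the mean of the other 8 genes, Rgs9 stood nearest at 0.174 and Adora2a farthest at 0.890.

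Of the marker lists of other brain regions, that of the hypothalamus was low in the same 2 libraries as the striatal genes, and that of the olfactory bulb in those and 2 more. The marker list of the hypothalamus, with 8 of 9 genes tested, had a mean centred log2 level of -2.05 in WT mock 1 and -1.59 in CAA mock 2, and of -0.28 to 1.70 in the other 6 libraries. Its summed level was 1.99 CPM in WT mock 1 against 55.7 in WT mock 2, and 4.28 in CAA mock 2 against 105 in CAA mock 1; it was 38.1 and 40.2 in WT stress and 122 and 151 in CAA stress. Of its tested markers, Oxt had 0 counts in WT mock 1, and Hcrt had 0 counts in WT mock 2 and WT stress 1. The olfactory bulb list, with 7 of 7 tested, was low in WT mock 1 (-1.56) and CAA mock 2 (-1.02) but also in CAA mock 1 (-0.89) and CAA stress 1 (-0.69). Its summed level was 64.1 to 71.6 CPM in those 4 libraries and 123 to 145 in the other 4. Of the 7 brainstem markers 2 were tested, with a mean of 2.54 in CAA mock 2 and a summed level of 18.9 CPM there, against 0.386 to 9.65 in the other 7 libraries. The 8 cortical excitatory neuron markers lay at 0.48 and -0.15 in WT mock 1 and CAA mock 2, and the 6 hippocampal markers at 0.62 and 0.55. The 8 thalamic markers lay at -0.03 and 0.91, and their summed level was highest in CAA mock 2 (461 CPM) and CAA stress 1 (436), against 161 to 331 in the other 6 libraries. Oligodendrocyte markers lay at 0.18 and 0.76, with the highest sum of the 8 libraries in CAA mock 2 (15223 CPM, against 5845 to 13943), astrocyte markers at 0.01 and 0.60, and choroid plexus markers at -0.41 and -1.51. The general neuron markers stayed between -0.17 and 0.09 in all 8 libraries. The share of mitochondrial counts was 8.29% in WT mock 1 and 9.99% in CAA mock 2, against 6.10% to 9.74% elsewhere. The part of these markers in the striatal values was not tested.

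**Figure D3:**
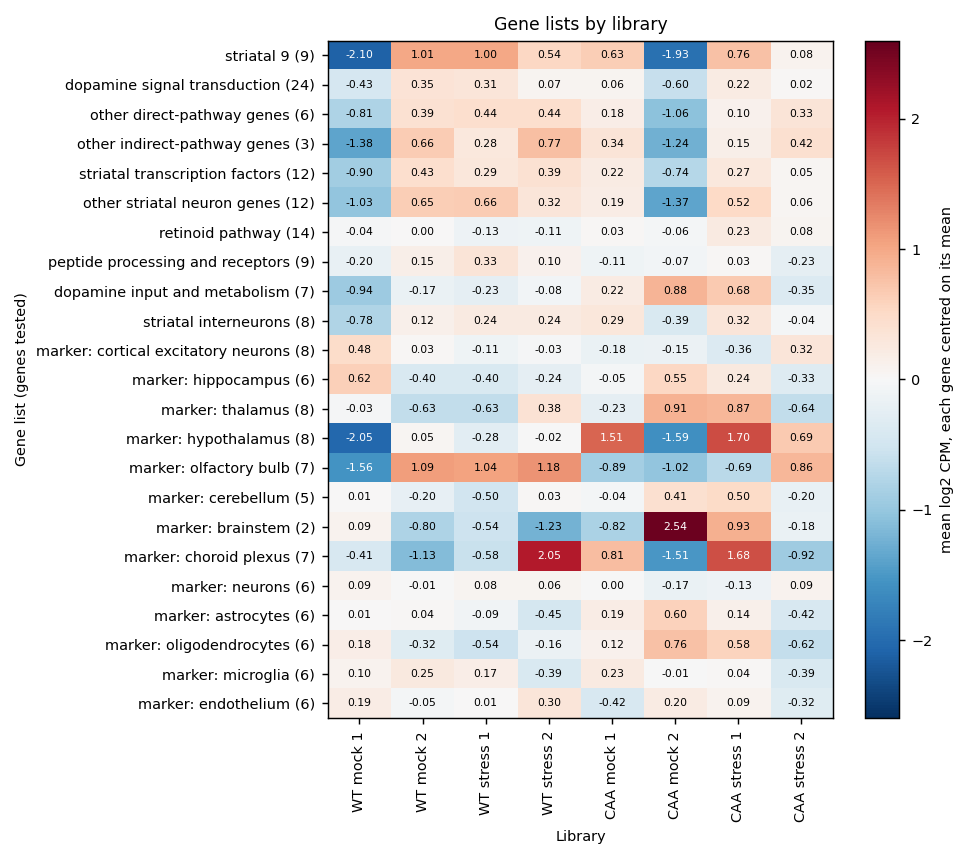
Mean log2 CPM of each gene list, every gene centred on its own mean over the 8 libraries (colour and printed value), for the lists (vertical axis, with the number of genes tested) in each library (horizontal axis). The row of the 9 striatal genes stands at -2.10 in WT mock 1 and -1.93 in CAA mock 2, and the hypothalamus row is low in the same columns.

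Stress was compared with mock treatment in each genotype and over both. With the genotypes averaged, all 9 genes had a positive log2 fold change, from 0.44 for Tac1 to 0.71 for Rgs9, with a median of 0.65 against 0.003 over all genes. The standard errors were 0.67 for Rarb to 1.41 for Adora2a, against a median of 0.17 over all genes. For Ppp1r1b the stress libraries had 295 ± 84.9 CPM (SD, n = 4) and the mock libraries 186 ± 149, a log2 fold change of 0.66 ± 0.83 (SE, edgeR quasi-likelihood test, adjusted p = 0.932). For Rarb the fold change was 0.55 ± 0.67 (edgeR adjusted p = 0.930), the smallest p of the 9. None of the 9 passed, where 0% of the 17182 genes did, and none had an unadjusted p under 0.05, against 657 of all genes.

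The stress fold changes turned negative once WT mock 1 and CAA mock 2 were left out. All 9 then lay between -0.30 for Tac1 and -0.10 for Ppp1r1b, with a median of -0.17. Penk stood at -0.17 ± 0.17 (SE) in those 6 libraries, against 0.68 ± 1.02 in all 8.

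Within WT, the stress fold changes ran from 0.49 for Pde10a to 0.77 for Drd1, with a median of 0.67. Their smallest unadjusted p was 0.511 (edgeR), for Rarb, and 0% of all genes passed. Within CAA they ran from 0.19 for Tac1 to 0.88 for Adora2a, with a median of 0.61 and 0% of genes past the threshold. Unadjusted p under 0.05 was met by 0 of the 9 in either, against 273 and 1193 of all genes. Without WT mock 1 and CAA mock 2 the median was -0.20 in WT, with 9 of 9 lower under stress, and -0.13 in CAA, with 8 of 9 lower. The difference between the stress effects of the genotypes was -0.49 for Tac1 at the lowest and 0.38 for Adora2a at the highest, with a median of 0.07. Again 0 of the 9 passed and 0% of all genes, with 595 genes under an unadjusted p of 0.05. The median was 0.12 without the low pair, 1.60 without CAA mock 1 and -2.43 without WT mock 2. DESeq2 called 0 of the 9 in each of the 7 comparisons as well.

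**Figure D4:**
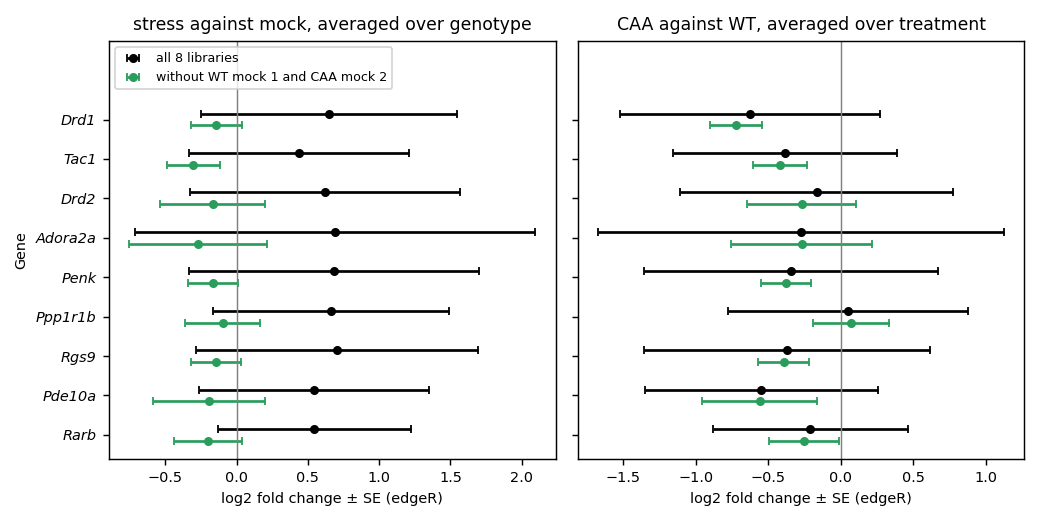
Log2 fold change ± SE from edgeR (horizontal axis) of the 9 striatal genes (vertical axis) for stress against mock (left) and CAA against WT (right), with all 8 libraries (black) and without WT mock 1 and CAA mock 2 (green). The stress values are all positive in black and all negative in green, whereas 8 of 9 CAA values are negative in both.

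CAA was compared with WT over both treatments, and 8 of the 9 genes had a lower mean in CAA. The log2 fold changes ran from -0.63 for Drd1 to 0.05 for Ppp1r1b, with a median of -0.34 against 0.001 over all genes. Drd1 had 34.3 ± 21.1 CPM (SD, n = 4) in WT and 21.8 ± 10.1 in CAA, and its fold change had a standard error of 0.90 (edgeR adjusted p = 0.870). Pde10a had 189 ± 114 CPM in WT and 130 ± 69.7 in CAA, at -0.55 ± 0.81 (SE). None of the 9 passed and none had an unadjusted p under 0.05, while 0.0116% of all genes passed and 1439 had such a p. The comparisons in this report share libraries, so their values are not independent of each other.

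Without WT mock 1 and CAA mock 2, 8 of the 9 were again lower in CAA, with a median of -0.38. Drd1 stood at -0.72 ± 0.18 (SE), Tac1 at -0.42 ± 0.19, Rgs9 at -0.39 ± 0.18 and Penk at -0.38 ± 0.18. Ppp1r1b was again the exception at 0.07 ± 0.26. The standard errors are smaller than with all 8 libraries because the libraries left out are the lowest for these genes, so no p-value is given. The 3 CAA libraries lay below the 3 WT libraries for 2 of the 9, Drd1 and Penk, against 9.96% of all genes.

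The CAA values also moved with the set of libraries used and with a term for sex. In the male libraries alone all 9 were lower in CAA, with a median of -0.94. That set drops WT mock 1 but keeps CAA mock 2, so sex and the low libraries cannot be told apart in it. In a fit with a term for sex the median was -0.01, with 4 of 9 higher. WT mock 1, the low WT library, is female, and it is the only female WT library, so sex and the low level cannot be told apart within WT. CAA mock 2, the low CAA library, is male, and the female CAA stress 1 was not low. Without WT mock 2 all 9 were higher in CAA, with a median of 0.86. Without CAA mock 2 the median was 0.06, and 6 of 9 were higher. All 9 were lower in CAA without WT mock 1 (median -0.77) and without CAA mock 1 (median -1.30).

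Under mock treatment all 9 were lower in CAA, from -0.60 for Pde10a to -0.09 for Ppp1r1b, with a median of -0.27. The sign rested on single libraries. All 9 were higher in CAA without CAA mock 2 (median 0.50) and without WT mock 2 (median 2.10), and all 9 were lower without the low pair (median -0.42). All 9 were also lower without WT mock 1 (median -1.15) and without CAA mock 1 (median -1.88). Here 0.0116% of all genes passed, none of them among the 9, and 688 genes against 0 of the 9 had an unadjusted p under 0.05. Under stress the fold changes ran from -0.75 for Drd1 to 0.19 for Ppp1r1b, with a median of -0.34 and 8 of 9 lower. The count past the threshold was again 0 of 9, beside 0.0116% of all genes, and 1413 genes had an unadjusted p under 0.05. Both CAA stress libraries lay below both WT stress libraries for 4 of the 9, namely Drd1, Tac1, Penk and Rarb. The share of all genes with that pattern was 20.4%. Neither of the low libraries is in these groups, but the signs still moved. All 9 were higher in CAA stress (median 0.58) in a fit over all 8 libraries with a term for sex. CAA stress 1 is the only female library in these groups, and without it all 9 were lower (median -0.80). All 9 were also lower without WT stress 2 (median -0.46). Without WT stress 1, 4 of 9 were higher (median -0.20), and without CAA stress 2, 3 of 9 (median -0.12).

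Ratios between the members cancel what all of them share in a library. With 4 libraries against 4 the smallest p an exact two-sided permutation test can give is 0.0286, and 12 such tests were made and adjusted by Benjamini-Hochberg. The log2 ratio of Drd1 to Drd2, which sets the direct pathway against the indirect, was 0.21 and 0.18 in WT mock and 0.31 and 0.48 in WT stress. It was -0.09 and -0.15 in CAA mock and -0.63 and 0.37 in CAA stress. The 4 WT libraries thus lay above 3 of the 4 CAA libraries. The means were 0.29 ± 0.13 in WT and -0.13 ± 0.41 in CAA (SD, n = 4), a difference of -0.42 (exact permutation test, p = 0.114, adjusted p = 0.457).

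The ratio of Pde10a to Ppp1r1b, both expressed in both pathways, had the smallest p of the 12. It was -0.29 and -0.28 in WT mock, -0.15 and -0.61 in WT stress, -0.85 and -0.50 in CAA mock and -1.03 and -0.95 in CAA stress, on the log2 scale. WT stress 2 lay below CAA mock 2, and otherwise the WT libraries lay above the CAA libraries. The difference of CAA from WT was -0.50 (exact permutation test, p = 0.0571, adjusted p = 0.457). Leaving out each library in turn gave -0.61 to -0.43.

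The peptide ratio of Tac1 to Penk was -0.52 in WT mock 1 and -0.63 in CAA mock 2, and -1.68 to -1.36 in the other 6 libraries. So the low libraries held relatively more Tac1 than Penk. The 4 stress libraries averaged -1.56 ± 0.12 and the 4 mock libraries -0.995 ± 0.49 (SD), a difference of -0.56 (exact permutation test, p = 0.0857, adjusted p = 0.457). With WT mock 2 at -1.48 and CAA mock 1 at -1.36, this difference rests largely on the 2 low libraries. The receptor ratio of Drd1 to Adora2a was likewise highest in those 2 libraries, at 0.81 in WT mock 1 and 2.08 in CAA mock 2, against -1.13 to 0.11 elsewhere. Its difference of stress from mock was -0.76 (exact permutation test, p = 0.314, adjusted p = 0.629) with all 8 libraries and 0.21 without that pair. The other ratio tests, of Rgs9 and Rarb to Ppp1r1b included, had exact permutation p-values of 0.286 to 1.

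**Figure D5:**
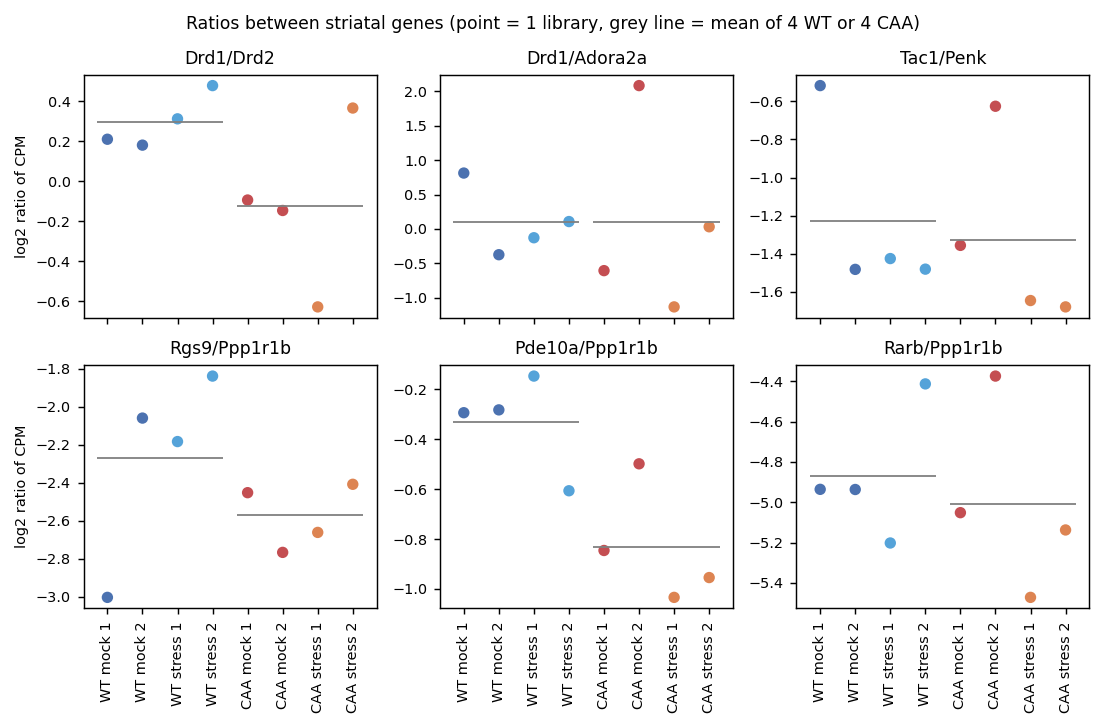
Log2 ratio of CPM (vertical axis) for 6 pairs of striatal genes in the 8 libraries (horizontal axis); each point is 1 library and grey lines are the means of the 4 WT and the 4 CAA libraries. The Pde10a/Ppp1r1b points average -0.33 in WT and -0.83 in CAA, and the Tac1/Penk points of WT mock 1 and CAA mock 2 stand above the rest.

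Among the genes whose profile over the 8 libraries was most like the mean of the 9 were Gbx1 (root mean square difference 0.262 on the log2 scale), Lhx8 (0.273), Rxrg (0.283) and Gpr6 (0.308). Ido1, Kcna5, Syndig1l, Serpina9 and Slc35d3 followed, up to 0.352, out of 13496 genes compared. The median of the genes compared was 1.21. Rxrg, a retinoid X receptor that pairs with retinoic acid receptors, had 2.85 and 2.93 CPM in the low libraries and 25.3 to 39.7 in the others. Gbx1 and Lhx8, homeobox genes, were at 0 in CAA mock 2 and averaged 1.89 and 2.11 CPM over the 8 libraries, so little depth stood behind them.

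A further 9 lists of genes that act with the members held 97 genes, of which 95 were tested. With edgeR 0 of the 95 passed in any of the 7 comparisons. The directions and medians of these lists are given with all 8 libraries only, WT mock 1 and CAA mock 2 included. Of the 24 genes of dopamine signal transduction, 20 were lower in CAA with a median of -0.20, and 4 had an unadjusted p under 0.05, as did 1439 of the 17182 genes tested. Among them Rgs7bp, which anchors the RGS9 family at the membrane, stood at -0.38 ± 0.13 (SE, edgeR adjusted p = 0.544) and Arpp19, a phosphatase inhibitor, at -0.59 ± 0.20 (0.552). Pde2a was also among these 4 but higher in CAA, at 0.68 ± 0.27 (SE, edgeR adjusted p = 0.586). The same list had 20 of 24 genes higher under stress, with a median of 0.25. All 12 other striatal neuron genes were higher under stress with a median of 0.61, and 10 of 12 were lower in CAA with a median of -0.26; Gprin3 stood at -0.55 ± 0.19 (edgeR adjusted p = 0.544) in CAA. Both of these lists were also low in WT mock 1 (-0.43 and -1.03) and CAA mock 2 (-0.60 and -1.37).

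Of the 12 striatal transcription factors, 8 were lower in CAA with a median of -0.18, and 10 were higher under stress with a median of 0.36. Foxp1, a forkhead factor of striatal and cortical neurons, had 89.1 and 89.7 CPM in WT mock, 95.2 and 90.2 in WT stress, 61.0 and 47.7 in CAA mock and 66.6 and 66.8 in CAA stress. All 4 CAA libraries lay below all 4 WT libraries, at 60.5 ± 8.98 against 91.1 ± 2.82 CPM (SD, n = 4), a log2 fold change of -0.60 ± 0.11 (SE). It missed the threshold with edgeR (adjusted p = 0.309) and passed with DESeq2 (adjusted p = 0.00553), which called 46 of the 17182 genes. Foxp1 is named because its p was the smallest of its list in CAA. Unlike the 9 members, Foxp1 in WT mock 1 was level with the other WT libraries. In CAA mock 2, the other low library, it had its lowest value of the 8 libraries, 47.7 CPM. Zfp503, another factor of the list, stood at 0.43 ± 0.28 in CAA.

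Of the 6 other direct-pathway genes 5 were higher under stress with a median of 0.51, and 5 were lower in CAA with a median of -0.22. Under stress Chrm4, the muscarinic receptor that opposes D1 signalling, stood at 0.55 ± 0.25 (edgeR adjusted p = 0.920), and Slc35d3, which acts in D1 receptor trafficking, at 0.93 ± 0.67. Of the 3 indirect-pathway genes tested all were higher under stress, with a median of 0.38, and all were lower in CAA, with a median of -0.26. Grik3, a kainate receptor subunit, stood at 0.38 ± 0.19 under stress and Sp9, a transcription factor of indirect-pathway neurons, at 0.74 ± 0.69. Like the members, the direct-pathway, indirect-pathway and transcription factor lists were low in WT mock 1 (-0.81, -1.38 and -0.90) and in CAA mock 2 (-1.06, -1.24 and -0.74).

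Of the 9 tested genes of peptide processing and peptide receptors, 7 were lower in CAA with a median of -0.23 and 6 were higher under stress with a median of 0.10. Pcsk1, a protease that cleaves peptide precursors, had 36.5 to 50.3 CPM in the CAA libraries and 50.9 to 73.9 in the WT libraries. Its fold change was -0.59 ± 0.12 (SE), with an adjusted p of 0.421 in edgeR and 0.0205 in DESeq2. Pcsk2, its sister enzyme, stood at -0.27 ± 0.11 in CAA (edgeR adjusted p = 0.586). Tacr1, the receptor of substance P, stood at 0.62 ± 0.22 under stress (edgeR adjusted p = 0.920).

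Of the 14 retinoid pathway genes, 11 were higher in CAA with a median of 0.09 and 6 were higher under stress with a median of -0.09. The mean centred log2 level of this list, which leaves out Rarb, stayed between -0.13 and 0.23 in all 8 libraries. Stra6, the membrane receptor that takes up retinol, stood at 0.76 ± 0.23 under stress and 0.71 ± 0.23 in CAA (edgeR adjusted p = 0.920 and 0.534), and its values in CAA stress were 10.8 and 12.2 CPM against 3.14 to 7.06 in the other 6 libraries. Cyp26b1, which breaks down retinoic acid, stood at 0.51 ± 0.26 in CAA.

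Of the 7 genes of dopamine input and metabolism, 5 were higher in CAA with a median of 0.11 and 3 were higher under stress with a median of -0.12. Slc6a3, the dopamine transporter of midbrain neurons, had 1 to 24 counts in the WT libraries and 27 to 359 in the CAA libraries, the highest in CAA mock 2. Its fitted log2 fold change was 3.66 ± 1.01 (edgeR adjusted p = 0.546). Ddc, which makes dopamine from its precursor, stood at 1.19 ± 0.45 in CAA (edgeR adjusted p = 0.586). The mean centred log2 level of this list was -0.94 in WT mock 1 and 0.88 in CAA mock 2. Of the 8 striatal interneuron genes, which lay at -0.78 and -0.39 in the same 2 libraries, 5 were higher in CAA with a median of 0.15 and 6 were higher under stress with a median of 0.30. Nos1, the neuronal nitric oxide synthase, had 53.3 to 71.1 CPM in CAA and 39.1 to 46.6 in WT, at 0.52 ± 0.12 (edgeR adjusted p = 0.508). Chat, the acetylcholine-making enzyme of cholinergic interneurons, stood at 0.70 ± 0.44 under stress.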

How the data were processed

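Messenger RNA of 8 mouse brain libraries was sequenced. Reads were aligned to mm10 and the authors made raw counts per gene; the submitters' processing notes list HISAT2 2.0.5 and, as counter, featureCounts 1.5.0-p3. Their settings and use of strand are not given in the sources. A second deposited table holds FPKM values; its library denominators equal DESeq2's robust library sizes (ratio 1). All library pairs differed beyond counting noise.

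The deposited counts entered edgeR 4.0.16 (R 4.3.3). After filterByExpr (minimum count 10, minimum total 15) and TMM scaling, a robust quasi-likelihood model of 4 group means over 8 libraries (4 residual degrees of freedom) gave 7 comparisons, with Benjamini-Hochberg adjustment over all genes tested and a threshold of 0.05. The interaction is the stress effect in CAA minus that in WT. Ratios were compared by exact permutation tests. Likeness used genes of at least 1 CPM; the folds between replicates used a mean of at least 1 CPM over the 8 libraries.

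Members were always named; of each further list, genes past the threshold, else the 2 with the smallest p under stress and the 2 in CAA, were available for naming, and for likeness the 10 nearest genes. Top2b, App and Pde2a are named beside these. A gene that the likeness rule names is not reported here. The members and lists were chosen with earlier results of these data known. Alternatives were DESeq2 1.42.0 and its size factors, no filter, a replicate block, a fit of only the groups compared, a term for sex, male libraries, limma 3.58.1 on log2 FPKM plus 1 or 0.1, omission of WT mock 1 and CAA mock 2, and each library in turn. The model was tested on simulated data. Motifs were searched on both strands of 300-base RefSeq windows.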

Additional observations from a re-analysis of the deposited data

Results flagged for a closer look

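In each arm of 4 libraries (WT, CAA, mock or stress), the lowest or highest library was compared with the spread of the others for the log2 CPM of the 9 genes and the 6 ratios, 60 checks in all. Of these, 10 stood out by Dixon's criterion. It flags about 5% of independent checks by chance, but that rate is no yardstick for genes chosen with earlier results of these data known. In the WT libraries WT mock 1 lay far below the other 3 for Drd1 (log2 CPM 1.95, next lowest 5.19), Tac1 (4.06, next 6.37), Penk (4.59, next 7.86), Rgs9 (2.88, next 5.92) and Rarb (0.64, next 3.09). In the same arm its log2 ratio of Tac1 to Penk was -0.52, far above the others at -1.48 to -1.43. In the CAA libraries CAA mock 2 lay far below the rest for Drd1 (2.78, next lowest 4.61) and Rgs9 (2.85, next 5.44). Among the mock libraries CAA mock 2 had a log2 ratio of Rarb to Ppp1r1b of -4.37, above the others at -5.05 to -4.94. Among the stress libraries CAA stress 1 had a log2 ratio of Drd1 to Drd2 of -0.63, below the others at 0.31 to 0.48. These checks share libraries and genes, so they are not separate observations. Most of the flags fall on WT mock 1 or CAA mock 2, already described as low, so their number is a description and no test.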

How the results depend on the processing

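None of the 9 striatal genes passed the threshold in any comparison under any alternative run, so what moved were values and signs, and 2 libraries a group limit them. Depth limits Adora2a and Rarb in the low libraries, with 22 to 37 counts. Leaving out WT mock 1 and CAA mock 2 turned the averaged stress effect negative for Drd1 (-0.14), Tac1 (-0.30), Drd2 (-0.17), Adora2a (-0.27), Penk (-0.17), Ppp1r1b (-0.10), Rgs9 (-0.14), Pde10a (-0.19) and Rarb (-0.20); the cause was not tested. It also turned the stress difference of Drd1/Adora2a to 0.21 and of Rgs9/Ppp1r1b to -0.017. In male libraries alone the stress effect was negative for Tac1 (-0.11), Drd2 (-0.17), Adora2a (-0.19) and Pde10a (-0.025), and the CAA effect of Ppp1r1b was -0.53, of Drd1/Adora2a 0.63 and of Tac1/Penk 0.24. A term for sex made the CAA effect positive for Drd2 (0.16), Adora2a (0.23) and Penk (0.073). On FPKM, limma gave Drd2 a CAA effect of 0.013 (pseudocount 1) and 0.086 (pseudocount 0.1), and the FPKM ratio of Drd1/Adora2a gave 0.0067.

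Leaving out each library in turn kept the averaged stress effect positive for all 9 genes. Each of those fits still held WT mock 1 or CAA mock 2, so the kept sign is no check on these low libraries. Within WT all 9 genes were lower under stress without WT mock 1 (median -0.20). Within CAA 8 of 9 were lower without CAA mock 2 (median -0.13). Over the same omissions the averaged CAA effect ranged from -1.32 to 0.73 for Drd1, -1.09 to 0.52 for Tac1, -0.83 to 1.21 for Drd2, -2.37 to 1.71 for Adora2a and -1.36 to 0.99 for Penk. For the rest it ranged from -0.85 to 0.86 for Ppp1r1b, -1.44 to 0.88 for Rgs9, -1.30 to 0.26 for Pde10a and -0.92 to 0.73 for Rarb. All highest values came without WT mock 2 and all lowest without CAA mock 1. The ratio differences that changed sign were Drd1/Drd2 under stress (-0.021 to 0.35) and, in CAA, Drd1/Adora2a (-0.67 to 0.40), Tac1/Penk (-0.33 to 0.14) and Rarb/Ppp1r1b (-0.35 to 0.018).

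Among the 95 further genes, DESeq2 called 2 in CAA averaged, Foxp1 and Pcsk1, where it called 46 of all 17182 genes. Without the filter on low counts 4 were called there (Arpp19, Foxp1, Pcsk1 and Nos1), 2 in CAA under mock (Arpp19 and Foxp1) and 1 in CAA under stress (Drd4, with 0 to 39 counts); of the 29446 genes then tested, 223, 82 and 120 were called in these 3 comparisons. Leaving out WT mock 2 makes the low WT mock 1 the only WT mock library. In that fit Th, with 25 to 301 counts, had a log2 fold change under stress of 3.45 in WT and 1.94 averaged. These genes were named after their values were seen.

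Replicate numbers did not pair the libraries: deviations of same-numbered libraries correlated at -0.29 to 0.11. A replicate block in the fit left 0 of the 9 genes called, turned the CAA effect of Ppp1r1b to -0.12 and changed no other sign among the averaged effects of the 9.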
